A study of Homo sapiens with 12 samples.

Results

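4sU-Seq was set against Total RNA-Seq in K562 cells, an established human chronic myelogenous leukaemia line that grows in suspension. Both groups came from cells given 500 µM 4-thiouridine (4sU), which cells take up and use in place of uridine in the RNA they are making, for 5 min, both were extracted with TRIzol, and in neither was the RNA sheared before library making. In 4sU-Seq the labelled molecules were then purified, and in Total RNA-Seq all RNA was used, so the comparison asks which RNA took up label. Each group holds 2 biological duplicates, 4 of the 12 samples of the series. No group of unlabelled cells was used here. Every level is a share of its own library, since no external standard was used, and fewer cells with a transcript cannot be told apart from less of it per cell. The counts were summed per transcriptional unit, a stretch of continuous transcription that the authors drew from sheared labelled RNA of the same line. The annotation holds 21874 units with a class each, and 19457 had enough counts to be tested. Of the 21874 units, 7944 carry a gene symbol here, 5864 of the 7810 in the mRNA class and 2080 in other classes.

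A short 4sU pulse marks RNA made during the pulse, while total RNA also holds what cells have kept from earlier hours. Stable RNAs, such as those of the translation machinery, are therefore known to be rich in total RNA, and short-lived ones, such as enhancer and promoter-antisense transcripts, are known to be rich in labelled RNA. When labelled RNA is purified without shearing, a whole molecule is pulled down with its label, including the part that was made before the pulse began.

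The libraries held 54.3 and 47.1 M counts in 4sU-Seq and 30.4 and 25.9 M in Total RNA-Seq. All of the 6 K562 markers (GATA1, TAL1, KLF1, TFRC, ALAS2 and EPOR) were above 1 CPM (count per M counts) in all 4 libraries and summed to 401 and 426 CPM in 4sU-Seq, against 464 and 459 CPM in Total RNA-Seq. Of 6 markers of other cell types, PTPRC of leukocytes and CD3D of T cells were above 1 CPM in all 4 libraries, and INS of pancreatic beta cells was at 0 in all of them. The 6 together summed to 149 and 143 CPM in 4sU-Seq and to 116 and 110 CPM in Total RNA-Seq. Their part in the results was not tested.

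Purification changed most units. Levels of units are given as TMM-scaled CPM, and fold changes as log2 ± SE of 4sU-Seq over Total RNA-Seq, with 2 libraries in each group. At an adjusted p under 0.05 (Benjamini-Hochberg), the quasi-likelihood test of edgeR called 13291 of 19457 units, or 68.3%, with 7818 (40.2%) higher and 5473 (28.1%) lower in 4sU-Seq, and the median over all tested units was 0.19 on the log2 scale. Among the 14115 units with a mean of at least 1 CPM the balance was the other way, with 4409 higher and 5422 lower and a median of -0.04. In 85.2% of all tested units the 2 groups did not overlap. The lower calls lay mostly in the mRNA class, where 3874 (49.6%) of 7808 units were lower and 1606 (20.6%) higher. The higher calls lay mostly outside the GENCODE annotation, where 4086 of 6175 units were higher and 143 lower, at a median of 1.35 on the log2 scale. Those units were found in labelled RNA, which favours such an excess.

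The balance of higher and lower calls depends on how libraries are scaled, because no standard fixes the zero. Higher units were 58.8% of the calls after TMM scaling, 47.7% with DESeq2 size factors, 42.1% in DESeq2's Wald test, 51.0% with the 4 libraries alone, 70.0% without scaling and 72.3% with TMM factors from the mRNA class. The median of all units moved by -0.14 with DESeq2 size factors, by 0.14 without scaling and by 0.18 with factors from the mRNA class. No unit changed direction between those calls. The mRNA median was -0.18 after TMM scaling, -0.32 with DESeq2 size factors, -0.04 without scaling and -0.00 with factors from its own class. In 2 against 2 samples an exact permutation test cannot go below p = 0.33. The edgeR p-values below rest on a spread estimated over all units and all 8 RNA libraries. The limma p-values, for the share of counts in the highest bins, rest on the 4 libraries alone.

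**Figure D1:**
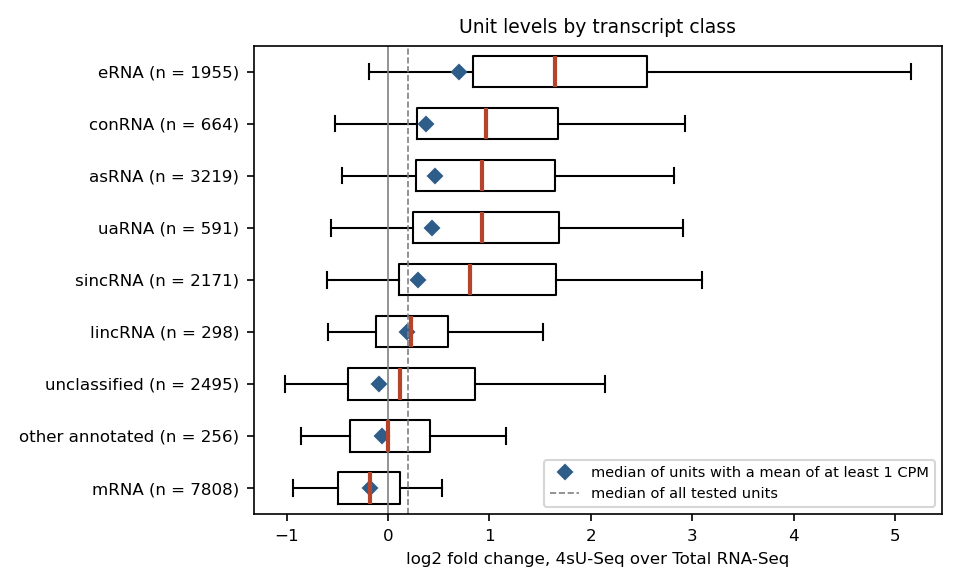
Log2 fold change of unit levels, 4sU-Seq over Total RNA-Seq, for each transcript class, with the number of units tested; boxes span the quartiles and whiskers the 5th to 95th percentile, the line marks the median and the diamond the median of units with a mean of at least 1 CPM. The eRNA class has the highest median, 1.64, and the mRNA class the lowest, -0.18.

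The units furthest below their Total RNA-Seq level included those over structural RNAs of the cell. A list of units of at most 10 kb that cover a RefSeq small RNA gene, made after the values were seen, holds 269 units, of which 249 were tested. Over this list 131 were higher (52.6%) and 34 lower (13.7%), near the 53.3% and 13.7% of all units outside the mRNA class. The median was 0.85, and types differed. All 3 units over RN7SL1 or RN7SL2, RNAs of the signal recognition particle, were lower, and of 5 units over Y RNA genes 4 were lower and 1 higher. Of 43 units over spliceosomal or other small nuclear RNA genes 26 were higher and 9 lower, and of 191 over transfer RNA genes 104 were higher and 15 lower. The RefSeq spans used carry no strand, short RNAs fit poorly into bins of 200 bp, and the handling of reads that match several copies is not stated in the labels or headers, so the members of these families are uncertain.

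RN7SK is the RNA that holds the elongation kinase P-TEFb inactive. Its unit (chromosome 6, 52995627 to 52995923, plus strand) had 78.8 and 88.0 CPM in 4sU-Seq and 555 and 613 CPM in Total RNA-Seq. Both 4sU-Seq libraries lay far below both others, and the log2 fold change was -2.81 ± 0.08 (SE; adjusted p = 1.11e-10 in edgeR's quasi-likelihood test). RPPH1, the RNA of RNase P that trims transfer RNA precursors, had 37.3 and 41.3 CPM in 4sU-Seq and 376 and 396 CPM in Total RNA-Seq (chromosome 14, 20341461 to 20343404, minus strand). The groups were apart by 9.83-fold, at -3.30 ± 0.20. RN7SL1, the RNA of the signal recognition particle (chromosome 14, 49583275 to 49587200, plus strand), stood at 30.0 and 33.1 CPM in 4sU-Seq against 194 and 212 CPM in Total RNA-Seq (-2.69 ± 0.15).

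TERC, the template RNA of telomerase, showed a gap as well, with more scatter between duplicates. Its unit (chromosome 3, 169762438 to 169765051, minus strand) had 9.30 and 16.0 CPM in 4sU-Seq and 68.2 and 60.3 CPM in Total RNA-Seq, a log2 fold change of -2.35 ± 0.23. A plus strand unit over the same gene stood at 0.35 and was not called. The 3 vault RNA units were not called. At the other end, the minus strand unit over RNU5F-1, a U5 small nuclear RNA gene whose strand the span does not give, had 11.9 and 15.2 CPM in 4sU-Seq and 3.52 and 4.43 CPM in Total RNA-Seq (1.78 ± 0.15), with both 4sU-Seq libraries above both others. The unit over RNU12 at -1.88 depends on its edges: with only bins wholly inside the unit it stood at -0.26 and was not called.

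Replication-dependent histone genes make short messages without a poly(A) tail that package newly copied DNA. Of 13 such units tested, none in the mRNA class, 11 were lower (84.6%), 1 was higher and 1 was not called. Of all units outside that class 13.7% were lower, and these include the 6175 units outside GENCODE, of which 143 were lower. The histone median of -1.41 was the lowest of the gene lists. H1-5, a linker histone (unit at chromosome 6, 27862003 to 27867577, minus strand), had 12.3 and 14 CPM in 4sU-Seq and 97.6 and 92.5 CPM in Total RNA-Seq, with every 4sU-Seq value far below (-2.85 ± 0.10, adjusted p = 6.61e-12). H2AC20, a core histone H2A gene, had 16.6 and 19.1 CPM in 4sU-Seq against 91.7 and 98.4 CPM in Total RNA-Seq (-2.41 ± 0.09). H3C7 had 14.3 and 18.4 CPM in 4sU-Seq against 76.7 and 81.0 CPM in Total RNA-Seq (-2.27 ± 0.12), in a unit that holds 2 genes.

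The exception among histones was H4C11, which had 21.4 and 24.4 CPM in 4sU-Seq and 20.2 and 17.5 CPM in Total RNA-Seq, a small and called excess of 0.28 that was no longer called with DESeq2 size factors. H2BC17 stood at -0.04 and was not called. H3C13 was not on the list but was the lowest named unit of the mRNA class: it had 23.6 and 23.4 CPM in 4sU-Seq and 94.2 and 104 CPM in Total RNA-Seq (-2.07 ± 0.08), and its unit also holds H2BC18. Histone units run past the gene and often face another transcript. H1-5 had only 1.24 times as many counts on its own strand as on the other in 4sU-Seq and 2.04 times in Total RNA-Seq, and H2AC20 had 0.24 times in 4sU-Seq and 0.579 times in Total RNA-Seq. Near-identical copies make the split between histone genes uncertain.

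The promoters of 4 of these histone genes are shown because the genes were depleted together; they run from 120 bases before to 10 bases after the annotated start and come from RefSeq on GRCh38.p14. Capitals mark CCAAT and TATAAA on either strand (ATTGG and TTTATA on the other), and H3C7 has TATAAA on both strands in overlap. In the order printed the stretches are chr6:27867579-27867708 (minus strand), chr6:26250626-26250755 (minus), chr1:149813684-149813813 (minus) and chr1:149886798-149886927 (plus).
H1-5: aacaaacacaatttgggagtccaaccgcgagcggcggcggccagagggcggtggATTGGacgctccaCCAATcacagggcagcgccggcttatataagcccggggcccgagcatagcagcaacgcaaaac
H3C7: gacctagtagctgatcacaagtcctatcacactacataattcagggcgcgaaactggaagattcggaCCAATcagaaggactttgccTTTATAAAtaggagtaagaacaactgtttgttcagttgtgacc
H3C13: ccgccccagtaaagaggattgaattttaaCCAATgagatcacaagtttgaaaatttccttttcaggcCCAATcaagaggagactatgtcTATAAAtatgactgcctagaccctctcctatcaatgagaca
H2AC20: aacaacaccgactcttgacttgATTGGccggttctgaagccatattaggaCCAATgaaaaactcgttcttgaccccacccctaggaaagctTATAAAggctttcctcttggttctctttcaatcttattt
Over the same 130 bases around the start, CCAAT stood on either strand in 12 of the 13 listed histone promoters, against 22.0% of 27305 promoters with 1 per gene. TATAAA stood in 7 of 13, against 6.25% of all, and both in 6 of 13, against 1.43%. A match in a window is a description of its letters and not evidence of a bound factor.

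Messages of the translation machinery were also depleted from labelled RNA. Of 26 translation factor units 25 were lower (96.2%, against 28.1% of all tested units and 49.6% of the mRNA class) and 1 higher (median -0.76). EEF2, the factor that moves the ribosome along the message (chromosome 19, 3975138 to 3985452, minus strand), had 501 and 604 CPM in 4sU-Seq and 1719 and 1859 CPM in Total RNA-Seq, with a wide gap between the groups (-1.70 ± 0.08, adjusted p = 3.98e-09). EEF1A1, which brings transfer RNA to the ribosome, had 794 and 824 CPM in 4sU-Seq and 1693 and 1667 CPM in Total RNA-Seq (-1.05). EIF5A, an elongation factor that carries hypusine, had 90.7 and 123 CPM in 4sU-Seq against 307 and 321 CPM in Total RNA-Seq (-1.56 ± 0.14). EIF3I, a subunit of the initiation factor eIF3, was the lowest of the list at -2.72 ± 0.12, in a unit that spans further genes. The exception was EIF5B, which joins the ribosomal subunits, with 350 and 282 CPM in 4sU-Seq and 200 and 170 CPM in Total RNA-Seq (0.77).

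Cytosolic ribosomal proteins were lower in 39 of 48 units (81.2%) and higher in 3, with a median of -0.41. Of all tested units 28.1% were lower, of the mRNA class, to which 19 of the 48 belong, 49.6%, and of units outside it 13.7%. Without scaling 27 and with factors from the mRNA class 26 of the 48 were lower. RPL29 had 191 and 156 CPM in 4sU-Seq and 354 and 387 CPM in Total RNA-Seq (-1.10 ± 0.09, adjusted p = 8.75e-07), so that each 4sU-Seq library lay well below each Total RNA-Seq library. RPL14 had 186 and 167 CPM in 4sU-Seq and 333 and 346 CPM in Total RNA-Seq (-0.95 ± 0.07). The small subunit gene RPS26 moved the other way by nearly the same size, with 28.7 and 36.0 CPM in 4sU-Seq and 16.0 and 16.5 CPM in Total RNA-Seq (0.99 ± 0.10), and RPL31 (0.33) and RPS27 (0.20) were the others above their total level. Most ribosomal protein genes have processed copies elsewhere in the genome, and reads may be split among them.

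Start sites of translation genes often carry a run of pyrimidines, the motif by which their messages are known to be regulated. The stretches below run from 20 bases before to 30 bases after the RefSeq start, with runs of at least 8 C or T that reach within 10 bases of the start in capitals, for the elongation factor EEF2, for 2 depleted ribosomal protein genes and for the gene that went the other way. They lie at chr19:3985434-3985483 (minus strand), chr3:51995866-51995915 (minus), chr3:40457319-40457368 (plus) and chr12:56041898-56041947 (plus).
EEF2: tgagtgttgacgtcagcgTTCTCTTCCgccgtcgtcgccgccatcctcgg
RPL29: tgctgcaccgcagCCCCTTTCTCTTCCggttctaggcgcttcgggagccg
RPL14: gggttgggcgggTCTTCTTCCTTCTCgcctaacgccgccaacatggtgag
RPS26: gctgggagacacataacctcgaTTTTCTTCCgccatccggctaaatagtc
A run of at least 8 C or T within 10 bases of the start was found in 38 of 48 ribosomal protein promoters (79.2%) and in 11 of 26 translation factor promoters (42.3%), against 15% of all 27305. RPS26, higher in 4sU-Seq, carries such a run as RPL29 and RPL14 do.

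**Figure D2:**
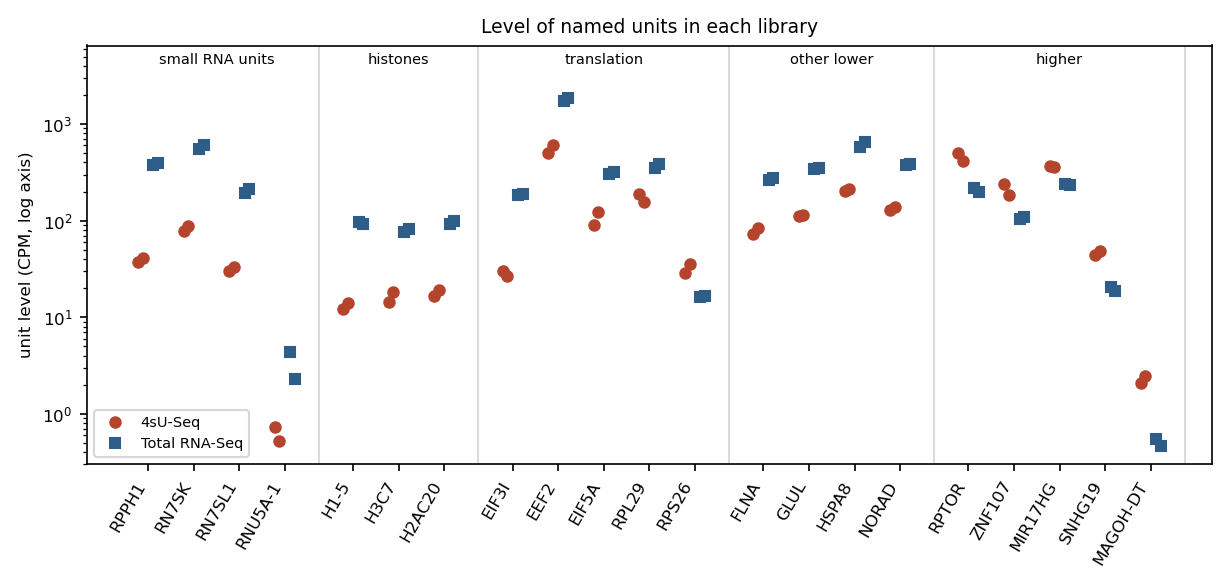
Levels in TMM-scaled CPM on a log axis of units described in the text, 1 point per library, with 4sU-Seq left of Total RNA-Seq for each unit. The groups do not overlap in the units over RN7SK and RPPH1, nor in H1-5 and EEF2.

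Other gene groups whose messages serve the whole cell leaned the same way. Chaperones and heat shock genes were lower in 22 of 25 units (88%) and higher in 1 (median -0.72). Over all tested units 28.1% were lower, and in the mRNA class, to which 21 of these belong, 49.6%. HSPA8, the constitutive HSP70 chaperone (chromosome 11, 123051378 to 123062435, minus strand) had 205 and 211 CPM in 4sU-Seq and 585 and 654 CPM in Total RNA-Seq (-1.58 ± 0.07, adjusted p = 6.18e-10). Its groups were nearly 3-fold apart, and HSP90AB1, a cytosolic HSP90, followed with 578 and 495 CPM in 4sU-Seq against 1312 and 1263 CPM in Total RNA-Seq (-1.26). HSPD1 and HSPA5, the chaperones of the mitochondrial matrix and of the endoplasmic reticulum, stood at -1.22 and -1.07. DNAJC3, a co-chaperone of the endoplasmic reticulum, was the 1 higher member, with 162 and 160 CPM in 4sU-Seq and 109 and 107 CPM in Total RNA-Seq (0.57).

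Splicing genes were mostly lower. SR splicing factors and CLK kinases were lower in 16 of 20 units (80%, against 49.6% of the mRNA class) and higher in 2. LUC7L at -0.84, SRSF10 at -0.82 and SON at -0.80 were furthest down. The kinase CLK4, which phosphorylates SR proteins, was higher, with 543 and 505 CPM in 4sU-Seq and 344 and 350 CPM in Total RNA-Seq (0.59). LUC7L3, a U1-associated factor, was higher as well, with 378 and 374 CPM in 4sU-Seq and 255 and 233 CPM in Total RNA-Seq (0.62). Heterogeneous nuclear ribonucleoproteins were lower in 17 of 21 units (81.0%) and higher in 1, HNRNPLL at 0.22. Of these SR and CLK units 13 of 20 belong to the mRNA class, and of the ribonucleoprotein units 14 of 21. PTBP1, which represses exons, had 155 and 181 CPM in 4sU-Seq against 374 and 396 CPM in Total RNA-Seq (-1.20), and PCBP1 and HNRNPH1 stood at -1.14 and -0.99.

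Genes of energy metabolism and protein turnover had smaller shifts. Glycolysis units were lower in 10 of 13 (76.9%, against 49.6% of the mRNA class) and higher in 1 (median -0.51). The aldolase gene ALDOA had 365 and 419 CPM in 4sU-Seq and 916 and 988 CPM in Total RNA-Seq (-1.28), in a unit that holds 2 genes, while the glucose transporter gene SLC2A1 had 182 and 183 CPM in 4sU-Seq and 130 and 135 CPM in Total RNA-Seq (0.46). Nuclear genes of oxidative phosphorylation were lower in 22 of 44 units (50%, near the 49.6% of the mRNA class) and higher in 4 (median -0.23), from NDUFV1, a core subunit of complex I, at -1.40 ± 0.10 to NDUFS4, another subunit of that complex, at 0.53. Without scaling 16 were lower and 8 higher (median -0.09), and with factors from the mRNA class 16 and 10 (-0.05). Proteasome units were lower in 18 of 26 (69.2%) and higher in 2 (median -0.37). PSMD2 of the regulatory particle had 28.4 and 28.7 CPM in 4sU-Seq against 76.1 and 76.8 CPM in Total RNA-Seq (-1.42 ± 0.11).

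**Figure D3:**
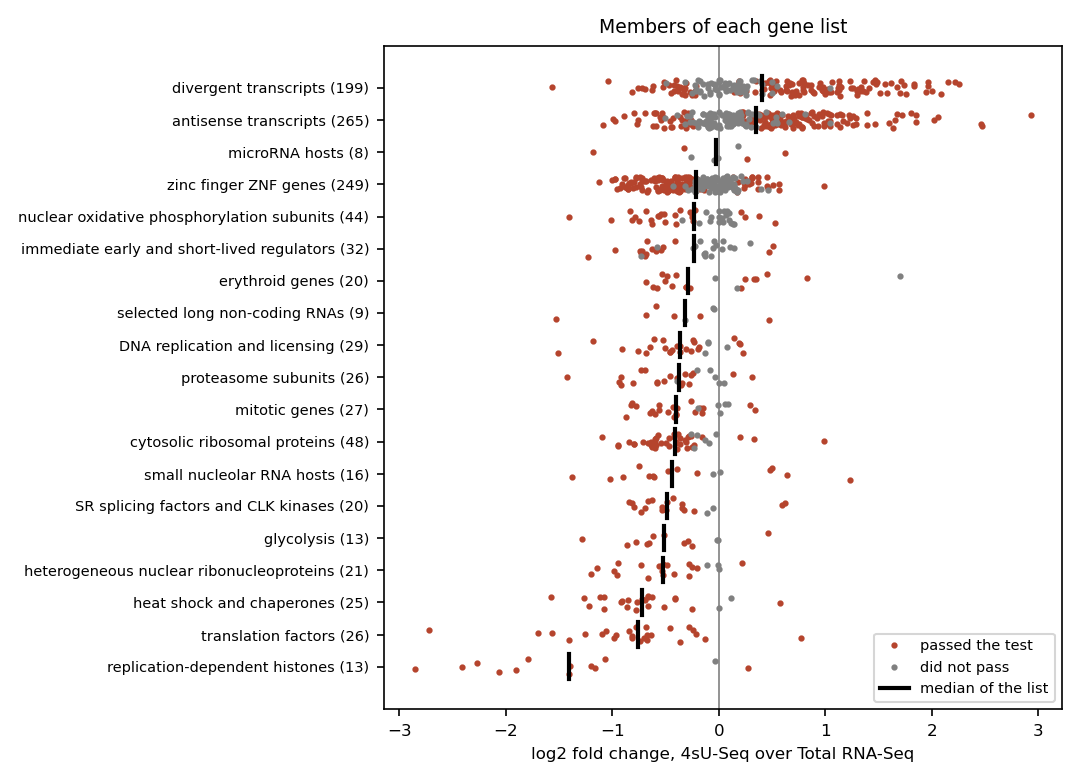
Log2 fold change of unit levels, 4sU-Seq over Total RNA-Seq, for each gene list; each point is 1 tested unit, red where it passed the test and grey where it did not, and the bar is the list's median. Histones have the lowest median, -1.41, and the divergent transcripts the highest, 0.40.

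Genes of proliferation were mostly lower as well. Replication and licensing genes were lower in 21 of 29 units (72.4%, against 49.6% of the mRNA class) and higher in 4 (median -0.36). Furthest down was CDT1, which loads the helicase at origins, with 42.2 and 54.1 CPM in 4sU-Seq and 126 and 148 CPM in Total RNA-Seq (-1.51 ± 0.13). MCM7, a subunit of that helicase, had 81.0 and 85.3 CPM in 4sU-Seq against 183 and 194 CPM in Total RNA-Seq (-1.18). Mitotic genes were lower in 20 of 27 (74.1%) and higher in 2 (median -0.40). Among them the kinesin genes KIF2C and KIF20A stood at -0.87 and -0.82, and the anaphase activator CDC20 at -0.81. The cytokinesis scaffold ANLN (0.34) and the kinetochore subunit NDC80 (0.29) were the higher members.

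Immediate early and other short-lived regulators, whose messages are known to turn over fast, were lower in 13 of 32 units (40.6%, against 28.1% of all tested units and 49.6% of the mRNA class, to which 17 of them belong; the difference was not tested), higher in 2 and uncalled in 17 (median -0.23). PIM1, a serine/threonine kinase, had 472 and 559 CPM in 4sU-Seq and 1015 and 1018 CPM in Total RNA-Seq (-0.98 ± 0.07), with no overlap. MAFF, a small MAF transcription factor, was lowest of the list at -1.23 ± 0.11, and NR4A1, a nuclear receptor, had 13.3 and 20.2 CPM in 4sU-Seq against 23.6 and 32.3 CPM in Total RNA-Seq (-0.74 ± 0.19). BTG2, an antiproliferative gene, was higher at 93.6 and 98.3 CPM in 4sU-Seq and 66.3 and 68.2 CPM in Total RNA-Seq (0.51), as was the repressor BCL6 at 0.47.

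Of the erythroid genes, which this line expresses, 11 of 20 units were lower (55%, near the 49.6% of the mRNA class) and 6 higher, with a median of -0.29. ZFPM1, the GATA1 partner FOG1, was furthest up among those called, with 170 and 197 CPM in 4sU-Seq and 103 and 104 CPM in Total RNA-Seq (0.83 ± 0.09, adjusted p = 3.1e-06). The erythrocyte membrane genes SPTB (0.45), GYPC (0.35) and RHAG (0.24) were higher too. The haem synthesis gene UROD and the mitochondrial glycine carrier SLC25A38 were lower, at -0.68 and -0.62. ALAS2, the first enzyme of haem synthesis in red cells, overlapped between groups, with 29.9 and 23.0 CPM in 4sU-Seq and 22.6 and 24.5 CPM in Total RNA-Seq, and was not called (0.17). Without 4sU-Seq replicate 1 its sign turned to -0.04, and it was called as higher without 4sU-Seq replicate 2 (0.34), without scaling (0.31), with factors from the mRNA class (0.35) and with a mean of at least 1 CPM (0.28).

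Within the mRNA class, the 10 named units with the largest excess in 4sU-Seq were all more than 2-fold higher. RPTOR, the scaffold of the growth kinase complex mTORC1 (chromosome 17, 80602271 to 80915173, plus strand), had 502 and 412 CPM in 4sU-Seq and 217 and 196 CPM in Total RNA-Seq (1.14 ± 0.08, adjusted p = 2.73e-07). LRP8, a lipoprotein receptor, had 142 CPM in each 4sU-Seq library against 65.8 and 70.6 CPM in Total RNA-Seq (1.06 ± 0.06). GRK5, a kinase of G protein-coupled receptors, had 69.3 and 58.3 CPM in 4sU-Seq and 30.4 and 31.5 CPM in Total RNA-Seq (1.05 ± 0.09). In these 3 units both 4sU-Seq values were about double both others.

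The other members of that group need their strand or spread beside them. PLBD2, a lysosomal phospholipase-like gene, had 462 and 399 CPM in 4sU-Seq and 156 and 192 CPM in Total RNA-Seq (1.31 ± 0.11), GAS6, a ligand of TAM receptors, had 134 and 107 CPM in 4sU-Seq against 49.4 and 55.3 CPM in Total RNA-Seq (1.20 ± 0.12), and MACROD1, a hydrolase of ADP-ribose marks, had 349 and 315 CPM in 4sU-Seq against 136 and 151 CPM in Total RNA-Seq (1.21 ± 0.09). IL6, a cytokine gene with an antisense transcript over it, had 7.29 and 9.16 CPM in 4sU-Seq and 3.59 and 3.64 CPM in Total RNA-Seq (1.18 ± 0.14); its own strand held 1.49 times the counts of the other in 4sU-Seq and 0.854 times in Total RNA-Seq. The SUMO ligase gene PIAS4 (1.03 ± 0.10), with 1.56 times in 4sU-Seq and 0.707 times in Total RNA-Seq, and the glucose transporter SLC2A11 (1.16 ± 0.19), with 1.41 times in 4sU-Seq and 1.25 times in Total RNA-Seq, also lie over transcription on the other strand. MUC4, a membrane mucin, was highest at 2.23 ± 0.47 but its 4sU-Seq duplicates differed, at 218 and 94.5 CPM, against 29.3 and 37.4 CPM in Total RNA-Seq. Its call (adjusted p = 0.0129) was lost with the 4 libraries alone (2.17), without Total RNA-Seq replicate 1 (2.06) and without replicate 2 (2.41).

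The other mRNA class units at the low end were a mixed group. GLUL, glutamine synthetase (chromosome 1, 182378739 to 182392172, minus strand), had 112 and 114 CPM in 4sU-Seq and 345 and 353 CPM in Total RNA-Seq, with duplicates that differed by little (-1.62 ± 0.06, adjusted p = 2.07e-11). TBL3, a nucleolar protein of ribosome making, had 13 and 14.2 CPM in 4sU-Seq and 46.5 and 50.4 CPM in Total RNA-Seq (-1.83 ± 0.11). LIN7C, a PDZ domain scaffold, had 34.4 and 34.3 CPM in 4sU-Seq and 110 and 105 CPM in Total RNA-Seq (-1.64 ± 0.07). EXOC8, an exocyst subunit (-1.63 ± 0.09), TMT1A, a thiol methyltransferase (-1.60 ± 0.12), and DDOST, a subunit of the oligosaccharide transferase (-1.56 ± 0.07), were lower by about 3-fold each.

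Genes named ZNF, mostly transcription factors with zinc fingers, were lower in 129 of 249 units (51.8%) and higher in 24 (9.64%), with a median of -0.22, near the 49.6% lower of the mRNA class. Without scaling 86 were lower and 60 higher. ZNF107 was furthest up, with 238 and 184 CPM in 4sU-Seq and 104 and 109 CPM in Total RNA-Seq (0.99 ± 0.10), and ZNF548 furthest down, with 4.08 and 3.84 CPM in 4sU-Seq and 8.79 and 8.49 CPM in Total RNA-Seq (-1.12 ± 0.14). Of the 19 gene lists with at least 8 tested units, 17 had a median below 0, and 18 kept the sign of their median under the 3 other scalings. The microRNA hosts were the exception.

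In a list of long non-coding RNAs, many of them known as nuclear or imprinted, 5 of 9 units were lower (55.6%) and 1 higher (11.1%). None belongs to the mRNA class, and of all units outside that class 13.7% were lower and 53.3% higher. Many of those are faint units outside GENCODE. In the lincRNA class 63 of 298 were lower and 123 higher. NORAD, an abundant and mainly cytoplasmic RNA that binds Pumilio proteins (chromosome 20, 36041636 to 36051847, minus strand), had 128 and 138 CPM in 4sU-Seq and 381 and 386 CPM in Total RNA-Seq (-1.53 ± 0.05, adjusted p = 6.61e-12). MALAT1, a nuclear speckle RNA, had 7807 and 6453 CPM in 4sU-Seq and 10913 and 10605 CPM in Total RNA-Seq (-0.59 ± 0.08), a gap larger than that between its 4sU-Seq duplicates. CYTOR was the higher one, with 322 and 296 CPM in 4sU-Seq and 223 and 222 CPM in Total RNA-Seq (0.48).

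Hosts of small nucleolar RNAs, whose introns release the guides of ribosomal RNA modification, were lower in 10 of 16 units (62.5%) and higher in 4 (25%; median -0.43). Of these units 3 belong to the mRNA class, and of all units outside that class 13.7% were lower and 53.3% higher, with many faint units outside GENCODE among them. SNHG16 had 68.2 and 65.6 CPM in 4sU-Seq and 172 and 175 CPM in Total RNA-Seq (-1.37 ± 0.08). SNHG19 went the other way, with 43.9 and 48.1 CPM in 4sU-Seq and 20.4 and 18.7 CPM in Total RNA-Seq (1.23 ± 0.11). For both hosts the groups were apart by more than 2-fold and duplicates differed by little.

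Of 8 microRNA host units 2 were higher and 2 lower, and their median of -0.02 was 0.12 without scaling, 0.15 with factors from the mRNA class and -0.17 with DESeq2 size factors. MIR17HG, the host of the growth-promoting miR-17 to miR-92 cluster (chromosome 13, 91347119 to 91391852, plus strand), had 365 and 360 CPM in 4sU-Seq and 240 and 232 CPM in Total RNA-Seq, with no overlap (0.62 ± 0.06, adjusted p = 2.48e-07). The host of miR-23a, MIR23AHG, stood at -0.33 ± 0.10, a call lost without scaling (-0.18), with factors from the mRNA class (-0.15), with a mean of at least 1 CPM (-0.22), without 4sU-Seq replicate 1 (-0.22) and without Total RNA-Seq replicate 2 (-0.26). The mature products cut from MIR17HG, on the plus strand of chromosome 13, are shown because the unit counts the host and not these RNAs; they are from RefSeq on GRCh38.p14, with the seed (bases 2 to 8) in capitals.
hsa-miR-17-5p: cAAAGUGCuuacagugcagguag
hsa-miR-20a-5p: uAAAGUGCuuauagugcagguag
hsa-miR-18a-5p: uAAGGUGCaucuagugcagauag
hsa-miR-19a-3p: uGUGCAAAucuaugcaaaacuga
The first pair shares the seed AAAGUGC, and the other two have seeds of their own.

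Non-coding classes outside the mRNA class shifted upward, and most by an amount that fell when faint units were set aside. Enhancer RNA units (eRNA) were higher in 1322 of 1955 and lower in 62, with a median of 1.64, or 0.70 among those with a mean of at least 1 CPM. Convergent units (conRNA) were higher in 389 of 664 (median 0.96), antisense units (asRNA) in 1895 of 3219 (0.92), upstream antisense units (uaRNA) in 344 of 591 (0.92) and short intergenic units (sincRNA) in 1183 of 2171 (0.81). In the better covered units those 4 medians were 0.37, 0.47, 0.43 and 0.29, in the same order. Long intergenic units (lincRNA) were higher in 123 of 298 and lower in 63 (0.23), and unclassified units higher in 879 of 2495 and lower in 776 (0.12, or -0.02 with DESeq2 size factors). Units outside GENCODE had a median level of 0.770 CPM in 4sU-Seq and 0.292 CPM in Total RNA-Seq. All units were drawn from sheared labelled RNA, and faint ones could pass the count filter through labelled libraries alone. An excess in labelled RNA is thus favoured by how such units were found, and by how much was not tested.

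The upward shift of the faint classes moved little of the mass of RNA. The mRNA class held 75.3 and 75.0% of unit counts in 4sU-Seq and 73.8% in each Total RNA-Seq library. The eRNA class held 1.68 and 1.57% in 4sU-Seq against 1.27% in each Total RNA-Seq library. Unclassified units, which include RN7SL1 and RPPH1, held 8.69 and 9.18% in 4sU-Seq and 10.6% in each Total RNA-Seq library. None of these shares overlapped between groups, and the smallest p an exact test allows here is 0.33.

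Single non-coding units reached larger folds than any message, from few counts. A sincRNA unit (chromosome 5, 146182867 to 146184889, plus strand) had 2.15 and 2.60 CPM in 4sU-Seq and 0.0781 and 0.233 CPM in Total RNA-Seq (3.97 ± 0.36). An eRNA unit (chromosome 9, 35913076 to 35914587, minus strand) had 2.58 and 2.01 CPM in 4sU-Seq and 0.156 and 0.187 CPM in Total RNA-Seq (3.74 ± 0.35). LINC01970 was the highest named lincRNA with a mean of at least 1 CPM, with 8.81 and 10.1 CPM in 4sU-Seq and 2.58 and 2.52 CPM in Total RNA-Seq (1.89 ± 0.15). In all 3 both 4sU-Seq libraries lay above both others.

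Some of the lowest units of these classes lie over protein-coding genes. The conRNA class unit over ACTB, cytoplasmic actin (chromosome 7, 5520736 to 5530593, minus strand), had 662 and 681 CPM in 4sU-Seq and 1551 and 1690 CPM in Total RNA-Seq (-1.27 ± 0.06). PNMA8A, in an eRNA class unit, had 14.2 and 14.5 CPM in 4sU-Seq against 45.2 and 48.6 CPM in Total RNA-Seq (-1.71 ± 0.08).

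Transcripts named for a neighbouring gene had shares near those of all units outside the mRNA class, of which 53.3% were higher and 13.7% lower. That background is no like set, since it includes the 6175 mostly faint units outside GENCODE, with 4086 higher and 143 lower. Among units in GENCODE, higher calls ran from 77 of 256 (85 lower) in other annotated units to 182 of 316 (36 lower) in the eRNA class. The difference from those was not tested. Divergent transcripts (names ending in -DT) were higher in 104 of 199 (52.3%) and lower in 29 (median 0.40), and antisense transcripts (-AS) were higher in 133 of 265 (50.2%) and lower in 37 (0.35). TNRC6B-DT had 0.792 and 1.28 CPM in 4sU-Seq and 0.0781 and 0.373 CPM in Total RNA-Seq (2.25 ± 0.48). MAGOH-DT had 2.09 and 2.47 CPM in 4sU-Seq and 0.547 and 0.466 CPM in Total RNA-Seq (2.15 ± 0.30), and RALGPS2-AS1 had 0.853 and 1.3 CPM in 4sU-Seq against 0.156 and 0.233 CPM in Total RNA-Seq (2.46 ± 0.43). BAIAP2-DT was the lowest divergent transcript, with 1.67 CPM in each 4sU-Seq library and 5.27 and 4.57 CPM in Total RNA-Seq (-1.57 ± 0.17). Calls on the faintest rest on single libraries: STK4-DT (2.22) was lost without Total RNA-Seq replicate 2 (1.67) and IFT74-AS1 (2.93) without replicate 1 (2.81).

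Within the mRNA class the balance of calls differed between classes of unit length, introns included. The longest units, over 150 kb, were higher in 456 of 743 and lower in 89, at a median fold change of 0.22 (log2) and median levels of 230 CPM in 4sU-Seq and 197 CPM in Total RNA-Seq. Units of at most 5 kb were higher in 23 of 152 and lower in 48, with most not called (median -0.21). Units of 5 to 15 kb were higher in 77 of 1084 and lower in 679 (median -0.45), and units of 15 to 50 kb higher in 302 of 3129 and lower in 2002 (-0.34). Units of 50 to 150 kb were higher in 748 of 2700 and lower in 1056; their median of -0.06 became 0.09 without scaling, 0.12 with factors from the mRNA class and -0.20 with DESeq2 size factors. For units over 150 kb the median stayed above 0, at 0.08 with DESeq2 size factors, 0.37 without scaling and 0.40 with factors from the mRNA class. Exons and introns are counted together here, so a change in the share of unspliced RNA cannot be told apart from a change in the number of transcripts.

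Across mRNA class units Spearman's rho between log2 fold change and length was 0.44 (7808 units), while across all 19457 units it was -0.56. The authors' deposited table gives a decay rate for many units. Across the 6911 mRNA class units with a rate, rho between log2 fold change and that rate was 0.17, and across all 17901 units it was 0.68. The labels and headers do not say how the rates were computed, and they may share these libraries, so the relation is a description and no independent measure.

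Counts also sat in different places within units. Each unit of at least 3 kb was cut into 3 equal segments, and the ratio of the 5′ to the 3′ segment in 4sU-Seq was set over that in Total RNA-Seq. This balance differed in 6917 of 14582 units (47.4%; groups did not overlap in 73.3%), with 4880 (33.5%) shifted toward the 5′ segment and 2037 (14%) toward the 3′ segment in 4sU-Seq, by edgeR's quasi-likelihood test (adjusted p under 0.05). In mRNA class units of 15 to 50 kb, 1622 were shifted to the 5′ and 412 to the 3′ side, and the 5′ segment held a median 56.5 and 55.5% of the counts of both outer segments in 4sU-Seq, against 46.4% in each Total RNA-Seq library. In units over 150 kb the shares were 51.8 and 52.2% in 4sU-Seq and 49.8 and 49.5% in Total RNA-Seq, with 325 units shifted to the 5′ and 150 to the 3′ side.

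The profile along 6746 mRNA class units of at least 10 kb, cut into 20 equal parts, gives the difference by position. Mean relative density, the density of a part over the mean of its unit, was 1.21 and 1.18 in 4sU-Seq and 0.98 in both Total RNA-Seq libraries in the 2nd part. In the 19th part it was 0.82 and 0.86 in 4sU-Seq, against 1.10 and 1.09 in Total RNA-Seq. Medians over units were higher in both 4sU-Seq libraries than in both others in all 20 parts. With the 4sU-Seq pair first, they were 1.04 and 1.01 against 0.79 and 0.78 in the 2nd part. In the 19th they were 0.35 and 0.36 against 0.28 and 0.26. A median that is higher in every part cannot tell the 5′ from the 3′ end. Whether the means describe the typical unit was therefore not settled by these medians. The first part had a mean of 1.48 and 1.57 in 4sU-Seq against 1.40 and 1.42 in Total RNA-Seq, and in units over 150 kb it was lower in 4sU-Seq, at 1.32 and 1.36 against 1.46 and 1.48 in Total RNA-Seq. The last part of those 743 units held 0.77 and 0.82 in 4sU-Seq and 1.19 and 1.20 in Total RNA-Seq (medians of 0.64 and 0.67 in 4sU-Seq and 0.82 and 0.77 in Total RNA-Seq).

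**Figure D4:**
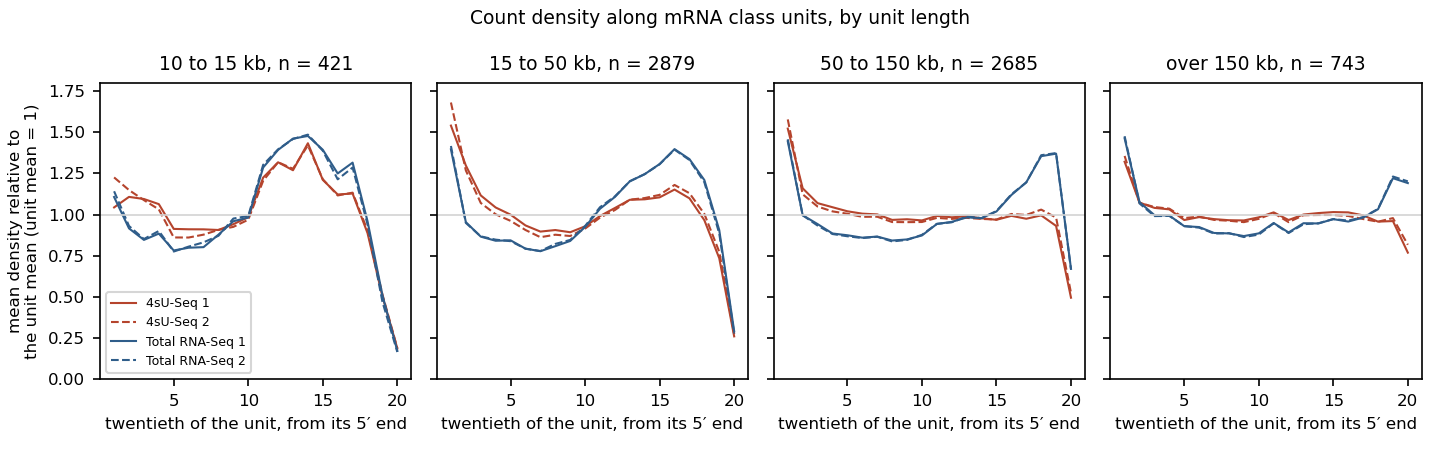
Mean relative density of counts along mRNA class units of at least 10 kb, in 20 equal parts from the 5′ end, 1 line per library, by length class. In the 19th part the 4sU-Seq lines lie below the Total RNA-Seq lines in the 3 classes over 15 kb, while in units of 10 to 15 kb they overlap there, at 0.50 and 0.52 in 4sU-Seq and 0.51 and 0.47 in Total RNA-Seq.

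In 4 of the 5 units with the largest 5′ shifts, most outer-segment counts of Total RNA-Seq lay in the 3′ segment. The middle segment is left out of these shares. In ZNF543 the 3′ segment held 66 and 59 of the 211 and 151 Total RNA-Seq counts of the whole unit. CPT2, the inner membrane enzyme of fatty acid import into mitochondria (chromosome 1, 53196810 to 53215930, plus strand), had 71.7 and 68.8% of its outer-segment counts in the 5′ segment in 4sU-Seq, against 16.2 and 19.5% in Total RNA-Seq. Both groups lay far from each other (log2 3.46 ± 0.17, adjusted p = 8.78e-13 in edgeR's test), while the level of the whole unit was not called (-0.22 ± 0.10, adjusted p = 0.0554). Its highest 200 bp bin lay 0.9 kb from the start in 4sU-Seq, with 15.6% of counts, and 13.7 kb from the start in Total RNA-Seq, with 14.3%. ALDH6A1, a dehydrogenase of valine breakdown, had 54.9 and 51.0% in 4sU-Seq and 9.71 and 13.9% in Total RNA-Seq (3.10 ± 0.20), and its level was lower too (-1.38 ± 0.08).

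IGF1, a growth factor gene, had 44.7 and 43.2% in 4sU-Seq and 5.78 and 8.33% in Total RNA-Seq (3.35 ± 0.22), and ZNF543 had 81.9 and 70.6% in 4sU-Seq and 28.3 and 14.5% in Total RNA-Seq (3.50 ± 0.38). CCNO had the largest estimate, 4.94 ± 1.71, from so few 3′ counts that its call was lost without any 1 of the 4 libraries and when units were cut into 2 parts in place of 3 (0.49). At the other end ITM2A, a membrane protein gene, had 88.8 and 93.9% in 4sU-Seq, against 99.4 and 99.7% in Total RNA-Seq (-4.30 ± 0.52). RNF26, an E3 ligase gene, had 98.0 and 96.7% in 4sU-Seq and 99.8 and 99.9% in Total RNA-Seq (-4.07 ± 0.69), and the nucleosome-binding gene HMGN1 had 98.7 and 98.0% in 4sU-Seq against 99.8 and 99.9% in Total RNA-Seq (-3.57 ± 0.62). In these short units the 3′ segment held 11 to 29 counts in 4sU-Seq and 1 to 4 in Total RNA-Seq. GADD45B (-3.35) and FZD1 (-3.18) showed the same but lost their calls without 4sU-Seq replicate 1 (-3.08 and -3.31) and without Total RNA-Seq replicate 1 (-2.25 and -3.07).

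**Figure D5:**
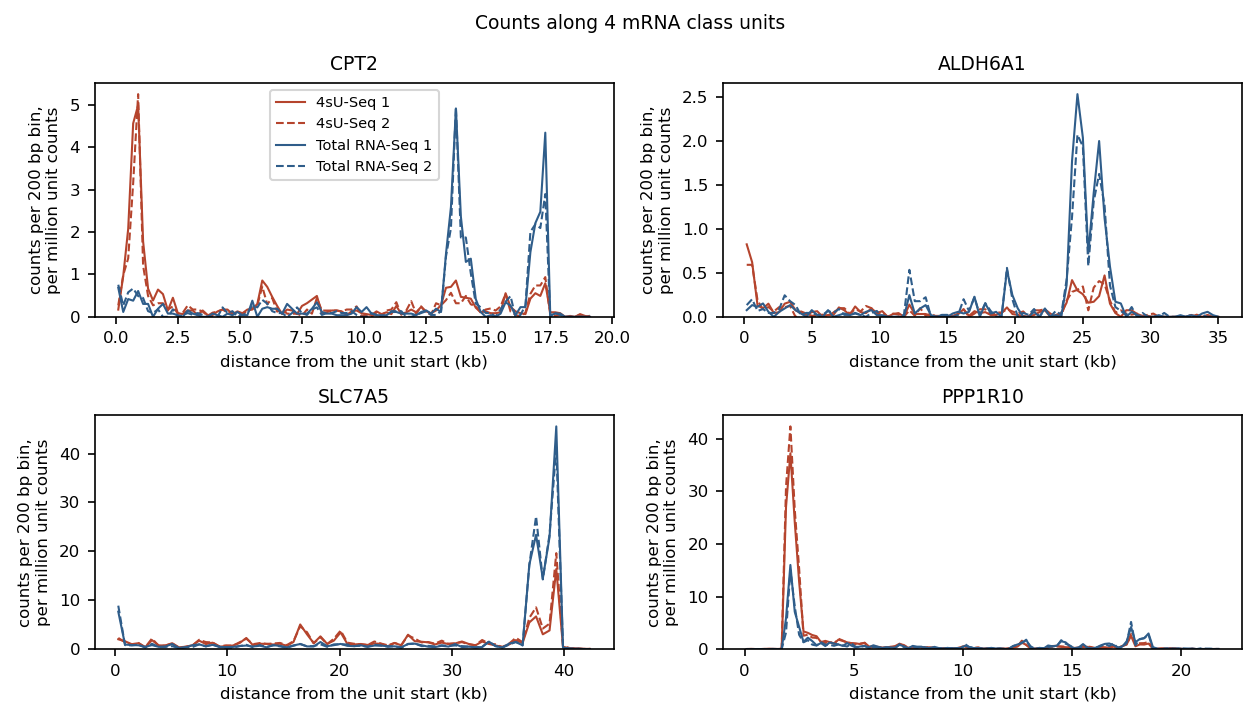
Counts per 200 bp bin per M unit counts against distance from the unit's start in kb for 4 mRNA class units, 1 line per library. In CPT2 the highest bin lies 0.9 kb from the start in 4sU-Seq and 13.7 kb in Total RNA-Seq.

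In the mRNA class 49.8% of units were shifted toward the 5′ and 14% toward the 3′ segment, and outside it 14.9% and 14%. The counts of the gene lists are given beside these, with no test between lists. Glycolysis units were shifted toward the 5′ segment in 9 of 13 and toward the 3′ segment in 1, and ZNF units in 116 and 28 of 249. Erythroid units were shifted toward the 5′ segment in 10 and toward the 3′ segment in 5 of 19. Histone units were shifted toward the 3′ segment in 8 of 13 and toward the 5′ segment in none. Ribosomal protein units were shifted toward the 3′ segment in 15 and the 5′ segment in 4 of 48. None of these histone units and 19 of the 48 ribosomal protein units belong to the mRNA class.

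Labelled RNA was spread more evenly over units. In units with at least 10 bins and 200 counts in each of the 4 libraries, the share of counts in the highest 10% of bins was compared at equal depth with limma. It differed in 6418 of 9612 units (66.8%; groups did not overlap in 83.9%), with 5737 (59.7%) less and 681 (7.08%) more concentrated in 4sU-Seq. The number more concentrated fell to 417 without 4sU-Seq replicate 2, to 318 without Total RNA-Seq replicate 1 and to 393 without Total RNA-Seq replicate 2. In mRNA class units of 50 to 150 kb the highest 10% held a median 39.4 and 40.4% of counts in 4sU-Seq and 48.5 and 50.1% in Total RNA-Seq, and 1988 of 2685 units were less concentrated. In units of at most 5 kb the direction was the opposite, with 48.2 and 46.2% in 4sU-Seq and 43.5 and 42.9% in Total RNA-Seq over 33 units, 15 of them more concentrated and 4 less.

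SLC7A5, a transporter of large neutral amino acids, had 40.0 and 42.6% of its counts in the highest 10% of bins in 4sU-Seq and 77.7 and 78.0% in Total RNA-Seq (difference -36.5 ± 1.62 percentage points). Its highest bin, 39.3 kb from the start, held 5.71% in 4sU-Seq and 9.38% in Total RNA-Seq. BCAT1, a branched-chain aminotransferase, had 35.6 and 37.8% in 4sU-Seq and 72.5 and 73.2% in Total RNA-Seq, and CCNB1IP1, in a unit with 2 small nucleolar RNA genes, fell to 40.4 and 38.8% in 4sU-Seq, against 77.8 and 74.4% in Total RNA-Seq. The largest difference, -43.7 ± 1.73 in GSTA4, lies over RN7SK on the other strand. Its highest bin held 22.5 times more counts on the other strand in 4sU-Seq and 12.4 times more in Total RNA-Seq, so GSTA4 cannot be told apart from its neighbour there.

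The units more concentrated in labelled RNA were led by TMC6, a membrane channel-like gene (chromosome 17, 78107001 to 78129082, minus strand), with 67.3 and 65.2% in 4sU-Seq and 42.8 and 40.6% in Total RNA-Seq (24.6 ± 1.66, adjusted p = 5.76e-06 in limma). Its highest bin lay 5.5 kb from the start in 4sU-Seq and 16.1 kb in Total RNA-Seq. PPP1R10, a nuclear phosphatase regulator, had 77.2 and 78.5% in 4sU-Seq and 55.4 and 57.9% in Total RNA-Seq, and a bin 2.1 kb from the start held 24.7% in 4sU-Seq and 18.4% in Total RNA-Seq. Its level was higher as well (0.79 ± 0.06). CHMP1A, a membrane remodelling subunit, had 51.5 and 62.0% in 4sU-Seq and 37.0 and 38.0% in Total RNA-Seq, and RILPL1 had 65.4 and 55.5% in 4sU-Seq and 42.3 and 42.6% in Total RNA-Seq. CHMP1A (18.8 and 19.8) and RILPL1 (17.8 and 18.2) lost their calls without either Total RNA-Seq library.

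Transcripts of the mitochondrial chromosome, made by a polymerase of their own from both strands, took 4.24 and 3.83% of counts in 4sU-Seq and 4.01 and 4.07% in Total RNA-Seq, with overlap. Within that share the genes differed. The ribosomal RNA gene RNR1 had 305 and 291 CPM (unscaled) in 4sU-Seq and 1013 and 933 CPM in Total RNA-Seq, a ratio of 0.306, and RNR2 had a ratio of 0.524. The messages near the other end of the same strand lay above their total level, with ratios of 1.10 for ND4, 1.19 for ND5 and 1.28 for CYTB, while COX1 had 0.770. These ratios are of the plus strand. Minus strand counts over the same genes ran the same way, at 0.187 for RNR1, 0.376 for RNR2 and 0.682 for COX1. For ND4, ND5 and CYTB they stood at 1.49, 1.33 and 1.39, so the pattern is not particular to 1 strand. The minus strand held 32.3 and 30.4% of mitochondrial counts in 4sU-Seq and 28.8 and 25.6% in Total RNA-Seq. These genes lie outside the units, so no model was fitted to them, and how far ribosomal RNA was removed by the library kit was not tested.

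The same purification was also made on sheared RNA, in TT-Seq set against Total RNA-Frag-Seq, and the difference between both purifications was tested as an interaction in the same fit. The interaction was called in 6701 of 19457 units (34.4%). The log2 fold change was higher in unsheared RNA in 5018 (25.8%) and higher in sheared RNA in 1683 (8.65%). Higher here means more positive or less negative, so a unit depleted less counts as higher and not as more changed. In 817 units, 506 of the mRNA class, the effect was called in opposite directions: 674 were higher in unsheared and lower in sheared labelled RNA, and 143 the reverse. These counts depend on the scaling, as each pair has its own zero. TMM factors were 1.06 and 1.08 in 4sU-Seq and 0.98 and 0.96 in Total RNA-Seq. They were 1.11 in each TT-Seq and 0.87 in each Total RNA-Frag-Seq library. The interaction was not recomputed under another scaling. PLBD2 was higher by 1.31 in unsheared and lower in sheared labelled RNA, at -0.81. RN7SK, H3C13 and GLUL had nearly the same values in both, at -2.81, -2.07 and -1.62 in unsheared and -3.07, -2.20 and -1.72 in sheared RNA, and their interactions were not called, which does not show that they are equal. EEF2 was depleted less in unsheared (-1.70) than in sheared RNA (-3.07; interaction adjusted p = 1.2e-06), and LIN7C more (-1.64 against -0.95; interaction adjusted p = 1.8e-05).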

How the data were processed

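The 4 libraries compared were read from a deposited table of whole counts in bins of 200 bp by strand, made by the authors from K562 RNA libraries (NuGEN Human Whole Blood RNA-Seq kit, per the labels). The tools named in the submitters' processing notes are Bowtie2 2.1.0, STAR 2.3.0 and SAMtools, with the build hg38 and no role for each. Units and classes are the authors' segmentation of TT-Seq with STAN, per the deposited description. The authors' deposited decay rates, a score without a stated unit, were used only in 1 rank relation. The deposited exon and intron tables were not used, since their rows carry no unit name.

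Bin counts were summed per unit on its own strand and passed to edgeR 4.0.16 (R 4.3.3) with filterByExpr, TMM scaling, robust glmQLFit on the 8 RNA libraries as 4 groups, glmQLFTest and Benjamini-Hochberg adjustment at 0.05. CPM are TMM-scaled unless stated. The balance of segments was fitted with library terms and a group effect on the 5′ segment in units of at least 3 kb. Concentration was tested with limma 3.58.1 on the 4 libraries compared, after thinning each unit to its lowest library. Alternatives used DESeq2 1.42.0 and other settings given below. Python 3.11.15 was used for summaries. The code was tested on simulated counts.

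Units were named from RefSeq gene spans on the same strand, with the strand of a gene taken from its RefSeq promoter. Both spans had a Jaccard overlap of at least 0.5, or the unit covered at least 0.8 of a gene and started within 3 kb of it. Small RNA genes alone were matched without strand. Of the named units 962 hold further genes. Named genes were the 10 highest and 10 lowest of the mRNA class and 2 at each end of other classes, with a mean of at least 1 CPM and no overlap. Also named were the 3 per list with the largest change and 5 at each end for position and concentration, without that limit. Others named from a list, such as its exceptions, were chosen after their values were seen. The members and lists were chosen with earlier results of these data known. Intervals on counts cover counting error only and none is printed. One result is not reported here.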

Additional observations from a re-analysis of the deposited data

Results flagged for a closer look

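The effect of purification differed between unsheared RNA (4sU-Seq against Total RNA-Seq) and sheared RNA (TT-Seq against Total RNA-Frag-Seq), with both effects called and of opposite signs in 7 named genes, by the interaction term of the edgeR fit (adjusted p under 0.05). The interaction, the log2 fold change in unsheared minus that in sheared RNA, was 2.12 for PLBD2, 1.99 for GAS6, 1.95 for MACROD1, 1.50 for ZFPM1, 1.44 for PIAS4 and 1.43 for LRP8. These 6 were higher in 4sU-Seq than in Total RNA-Seq and lower in the sheared pair. TFRC, the transferrin receptor, had -0.58, being lower in unsheared (-0.31) and higher in sheared labelled RNA (0.27). PLBD2, GAS6, MACROD1, PIAS4, LRP8 and ZFPM1 were named for the size of their change in the unsheared pair, so the sign of their interaction is not independent of that choice. MACROD1 and PIAS4 lie over transcription on the other strand. All interactions rest on TMM scaling and were not recomputed under another. The cause was not tested.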

How the results depend on the processing

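Of the single values named, 2128 recomputations kept their direction and side of the threshold, or moved by less than the spread between duplicates; 26 lost and 4 gained a call, 137 values without a test moved, and 3 turned sign, 1 of ALAS2 and 2 of the unclassified median. The medians of the microRNA hosts and of mRNA class units of 50 to 150 kb, given above by scaling and not among these values, turned sign as well. Units higher in 4sU-Seq numbered 4751 in DESeq2's Wald test, against 7818. Units more concentrated in 4sU-Seq ranged from 318 to 489 when 1 library was left out, against 681. The median of unclassified units was -0.025 in DESeq2's Wald test and -0.024 with DESeq2 size factors, and ALAS2 was -0.039 without 4sU-Seq replicate 1 and 0.34 without replicate 2. Differences in the share of counts, 4sU-Seq minus Total RNA-Seq in percentage points, ranged with 1 library left out from -0.0122 to 0.0909 for asRNA (0.0393 with all), from -0.0207 to 0.0176 for uaRNA (-0.00155) and from -0.213 to 0.2005 for the mitochondrial chromosome (-0.0062; 0.0226 without Total RNA-Seq replicate 2), and the share of other annotated units was -0.0452 with only bins wholly inside units (-0.0909). The cause was not tested. Other counts over all units stayed within 1.5 times.

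Deviations from the group means in samples with the same replicate number had a correlation of 0.041 between 4sU-Seq and Total RNA-Seq. Over the 6 pairs of RNA groups it ran from -0.045 to 0.162. A low correlation cannot exclude that the numbers pair the samples, and the main fits left them unpaired. With the replicate as a block, 13454 units were called, 7866 higher and 5588 lower, with 7027 shifts between segments (4935 and 2092) and 6473 changes in concentration (694 more, 5779 less).

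With 2 libraries a group, faint units rest on few counts. Units come from TT-Seq, exons and introns are not separated, and without unlabelled cells the background of the purification cannot be measured here.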
